A study of Mus musculus with 36 samples.

Results

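Glucose enters a cell through a transporter and is broken down in the cytosol by a chain of enzymes, and 10 genes of that route were followed here: the transporter gene *Slc2a1* and the enzyme genes *Hk1*, *Hk2*, *Gpi1*, *Pfkl*, *Pfkp*, *Aldoa*, *Pgk1*, *Pkm* and *Ldha*. All 10 were found among the 50600 genes listed for the sorted Day 3 libraries and among the 29267 genes listed for the other libraries.

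Glycolysis splits glucose into pyruvate and yields ATP without oxygen, and lactate dehydrogenase then turns pyruvate into lactate and restores the NAD+ that the route consumes. Several steps are served by isoenzymes encoded by separate genes, which differ in their regulation and in the tissues that carry them. Primed pluripotent cells such as epiblast stem cells (EpiSCs) are known for a strong reliance on glycolysis, whereas naïve cells combine it with mitochondrial respiration.

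Bulk RNA-seq was available for 11 libraries from mouse cells passing from the primed EpiSC state towards naïve pluripotency, a passage driven by BMP4. In the experiment on sorted Day 3 cells, 2 libraries came from *c-Kit*+ cells and 2 from *c-Kit*- cells, c-Kit being a surface receptor tyrosine kinase; by the study's methods these cells had spent their 3 days in Stage 1 medium, which is iCD1 with BMP4, the EZH2 inhibitor EPZ6438 and a DOT1L inhibitor, either EPZ5676 or SGC0946. A second experiment held 3 libraries of EpiSCs, which were grown with Activin A, bFGF and XAV939, and 2 libraries of Day 6 BV+SC+ cells, which express the germ cell reporters Blimp1-mVenus and Stella-ECFP and are labelled as primordial germ cell-like. The BV+SC+ cells were made from reporter EpiSCs by 3 days in iCD1 medium (vitamin C, bFGF, LiCl, LIF and CHIR99021) with BMP4, EPZ5676 and EPZ6438, followed, by the growth protocol, by 3 days in N2B27 with PD0325901, CHIR99021 and vitamin C, and were purified by FACS. Their labels, however, add 2iJi for replicate 1, which they do not define, and GK15 for replicate 2, the name of another Stage 2 culture condition tried in the study, so these libraries may differ in medium for the last 3 days. By the study's text the reporter EpiSCs came from ESCs with both transgenes, and its methods also describe EpiSCs from embryos; the labels do not say which line the EpiSC libraries came from. The third experiment had 1 Day 3 library with and 1 without SGC0946 (DOT1Li), while the rest of their medium is not described in the labels. By the study's text both were Day 3 cells of the BMP4 transition, whose Stage 1 medium also holds BMP4 and the EZH2 inhibitor EPZ6438. Total expected counts, the estimated number of reads per gene, ran from 1726038 to 1841442 in the sorted libraries, from 2444211 to 3070115 in EpiSCs, from 14778809 to 18099059 in BV+SC+ cells, and were 4776143 with and 4577685 without SGC0946.

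The genes lie at the following places in the mouse genome (GRCm38). *Slc2a1* (ENSMUSG00000028645, chr4:119108711-119137983, plus strand) encodes GLUT1, which carries glucose across the plasma membrane. *Hk1* (ENSMUSG00000037012, chr10:62268855-62379908, minus strand) and *Hk2* (ENSMUSG00000000628, chr6:82725025-82774454, minus strand) encode hexokinases, which phosphorylate glucose and so trap it in the cell. *Gpi1* (ENSMUSG00000036427, chr7:34201330-34230336, minus strand) encodes the isomerase that turns glucose phosphate into fructose phosphate. *Pfkl* (ENSMUSG00000020277, chr10:77986947-78010083, minus strand) and *Pfkp* (ENSMUSG00000021196, chr13:6579768-6648777, minus strand) encode the liver and platelet types of phosphofructokinase, the main control point of the route. *Aldoa* (ENSMUSG00000030695, chr7:126795234-126800751, minus strand) encodes the aldolase that cleaves fructose bisphosphate into a pair of triose phosphates. *Pgk1* (ENSMUSG00000062070, chrX:106187100-106203699, plus strand) encodes phosphoglycerate kinase, the first step that makes ATP. *Pkm* (ENSMUSG00000032294, chr9:59656368-59679375, plus strand) encodes muscle-type pyruvate kinase, the last step before pyruvate. *Ldha* (ENSMUSG00000063229, chr7:46841475-46855627, plus strand) encodes the A subunit of lactate dehydrogenase.

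Levels are given as TPM, RSEM's measure of transcript abundance, which corrects for transcript length and library depth and allows genes to be compared within a library. *Pkm* was the most abundant of the 10 genes in all 11 libraries, with mean levels of 4457 TPM for EpiSCs, 2198 for BV+SC+ cells, 1774 for *c-Kit*- cells and 2066 for *c-Kit*+ cells. *Aldoa* came next in every group, from 870 TPM in *c-Kit*+ cells to 3077 in EpiSCs. The lowest place was held by *Hk1*, *Hk2* or *Pfkp*, depending on the library. In EpiSCs the order of mean levels below *Aldoa* was *Ldha* (1850 TPM), *Pgk1* (1528), *Gpi1* (837), *Slc2a1* (251), *Pfkl* (241), *Hk2* (151), *Pfkp* (28.3) and *Hk1* (25.5), and of these neighbours only *Slc2a1* and *Pfkl* overlapped between replicates. In BV+SC+ cells the order was *Gpi1* (718 TPM), *Pgk1* (551), *Pfkp* (241), *Ldha* (217), *Slc2a1* (137), *Pfkl* (101), *Hk1* (56.1) and *Hk2* (55.0), with overlaps between *Pfkp* and *Ldha*, *Slc2a1* and *Pfkl*, *Pfkl* and *Hk1*, and *Hk1* and *Hk2*. *Ldha* thus stood next after *Aldoa* in EpiSCs and below *Gpi1*, *Pgk1* and *Pfkp* in BV+SC+ cells. In *c-Kit*- cells *Slc2a1* (528 TPM) lay beside *Pgk1* (539), and their replicates overlapped, as did those of *Hk1* (66.0) and *Pfkl* (64.5) and those of *Pfkp* (49.8) and *Hk2* (37.7). *Ldha* (675 TPM) and *Gpi1* (356) stood apart from their neighbours in *c-Kit*- cells. In *c-Kit*+ cells *Ldha* (383 TPM) and *Pgk1* (377) overlapped, and *Gpi1* (336), *Slc2a1* (253), *Pfkl* (78.9), *Hk2* (45.6), *Hk1* (23.6) and *Pfkp* (14.9) followed without overlap. Both unreplicated Day 3 libraries had a single order: *Pkm*, *Aldoa*, *Ldha*, *Gpi1*, *Pgk1*, *Slc2a1*, *Pfkl*, *Hk1*, *Hk2*, *Pfkp*.

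The 10 genes together held 1.19%, 1.3% and 1.25% of all TPM in the EpiSC libraries and 0.476% and 0.666% in the BV+SC+ libraries. Their summed share was 0.544% and 0.533% for *c-Kit*- cells, 0.437% and 0.452% for *c-Kit*+ cells, 0.538% with SGC0946 and 0.504% without it. Within their own experiments the EpiSC libraries thus held more than the BV+SC+ libraries, and the *c-Kit*- libraries more than the *c-Kit*+ libraries. Shares are not ranked between the sorted and the other libraries, which differ in the genes listed and, by their labels, in library type.

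**Figure D1:**
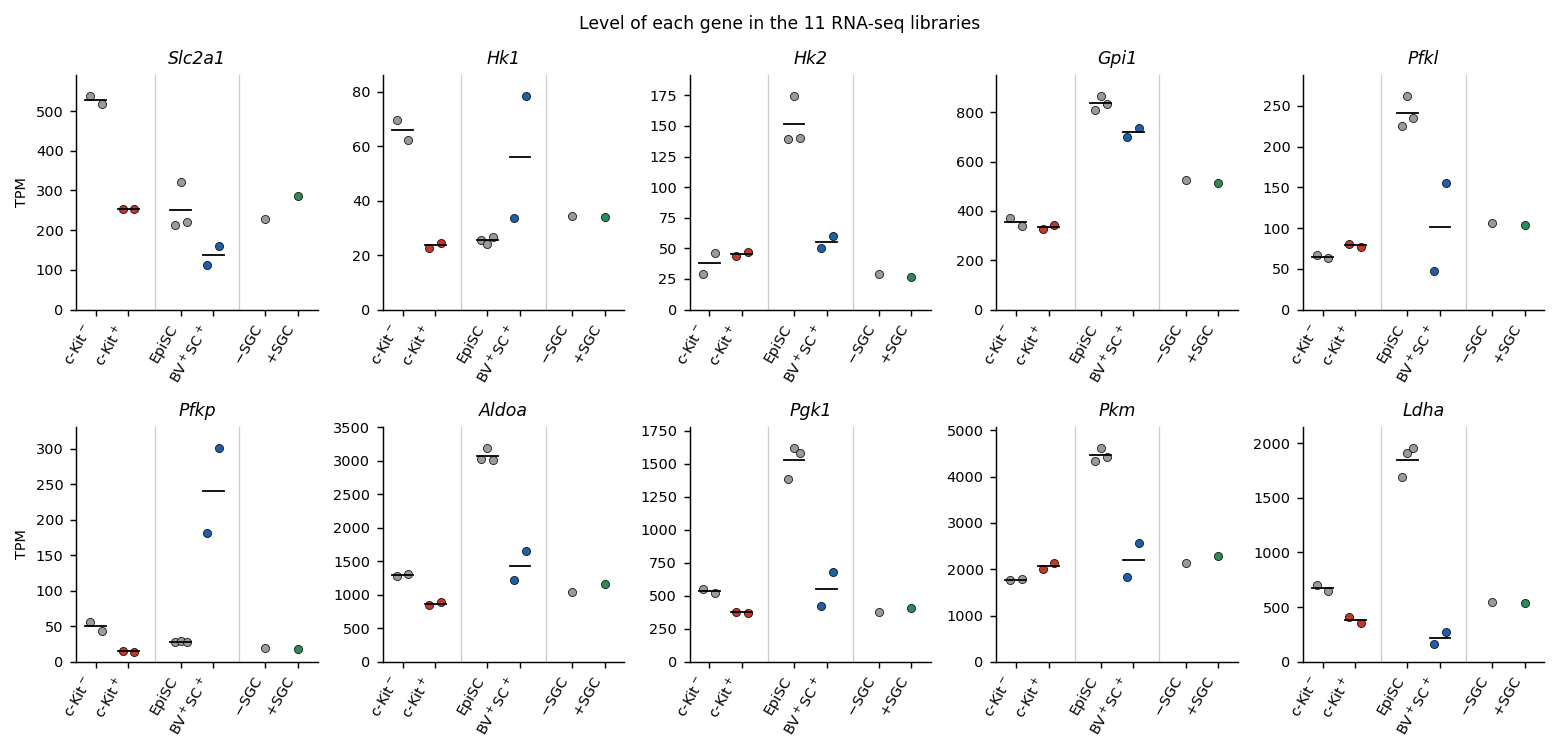
Level of each of the 10 genes in TPM (y axis) in the 11 libraries, by group (x axis); each point is 1 library and each bar the mean of a replicated group. *Ldha* lies between 1689 and 1954 TPM in EpiSCs and at 162 and 271 TPM in BV+SC+ cells, and *Pfkp* takes the opposite course.

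The sorted Day 3 cells were compared to find how cells that carried c-Kit on that day differed from those that did not. The transporter gene *Slc2a1*, *Hk1*, *Pfkp*, *Aldoa*, *Pgk1* and *Ldha* were lower in *c-Kit*+ cells, and *Hk2*, *Pfkl* and *Pkm* were modestly higher. Of the 10 genes, 9 were called at an adjusted p under 0.05 by edgeR's quasi-likelihood test with Benjamini-Hochberg adjustment over the 11018 genes tested (n = 2 libraries per population), against 43.1% of all genes tested. The 6 lower genes compare with 22.1% of all genes tested called lower, and the 3 higher genes with 21.0% called higher. The median log2 fold change of the 10 genes was -0.40, beside 0.03 over all genes tested.

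*Slc2a1* measured 538 and 517 TPM in *c-Kit*- cells and 253 and 253 TPM in *c-Kit*+ cells. Replicates nearly coincided and the populations lay far apart. The transporter gene fell 1.91-fold in *c-Kit*+ cells (log2 fold change -0.93, SE 0.08, adjusted p = 1.68e-07). In these bulk samples, fewer cells of a type and less RNA per cell cannot be told apart, for *Slc2a1* as for every gene below. *Hk1* stood at 69.6 and 62.4 TPM in *c-Kit*- cells and at 22.8 and 24.5 TPM in *c-Kit*+ cells. Both *c-Kit*- libraries were thus the high ones, and *Hk1* fell 2.6-fold (log2 fold change -1.38, SE 0.15, adjusted p = 2.87e-06).

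*Hk2*, the inducible hexokinase, gave 145 and 169 expected counts in *c-Kit*- cells against 213 and 187 in *c-Kit*+ cells, but on the TPM scale 28.8 and 46.6 against 43.9 and 47.4. The counts did not overlap between populations and the TPM did, since TPM divides by the effective length of the gene's transcripts, which was 5192 and 3790 bases in *c-Kit*- cells and 4962 and 3747 bases in *c-Kit*+ cells. By counts *Hk2* rose 1.33-fold (log2 fold change 0.41, SE 0.16, adjusted p = 0.0452). This call was lost without *c-Kit*- replicate 1 (log2 fold change 0.28, adjusted p = 0.178), without *c-Kit*+ replicate 1 (0.25, adjusted p = 0.392), without *c-Kit*+ replicate 2 (0.52, adjusted p = 0.075), with effective length in the model (0.43, adjusted p = 0.186), with at least 10 expected counts required in every library (0.39, adjusted p = 0.0525) and with DESeq2 (0.40, adjusted p = 0.269). *Hk3* and *Pklr*, of a further hexokinase and pyruvate kinase, were at 0 TPM in all 4 libraries and were not tested.

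*Gpi1* measured 371 and 340 TPM in *c-Kit*- cells and 327 and 345 TPM in *c-Kit*+ cells. The populations overlapped, and the log2 fold change of -0.08 (SE 0.09, adjusted p = 0.488) was not called.

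The phosphofructokinase genes moved in opposite directions. *Pfkl* was at 66.4 and 62.7 TPM in *c-Kit*- cells and at 80.8 and 76.9 TPM in *c-Kit*+ cells, without overlap. It rose 1.39-fold (log2 fold change 0.48, SE 0.13, adjusted p = 0.00637), a call that was lost without *c-Kit*+ replicate 1 (0.43, adjusted p = 0.0811) and without *c-Kit*+ replicate 2 (0.47, adjusted p = 0.06). *Pfkp* was at 56.5 and 43.0 TPM in *c-Kit*- cells and at 15.8 and 14.1 TPM in *c-Kit*+ cells. The *c-Kit*- libraries were well above the others, and *Pfkp* fell 2.94-fold (log2 fold change -1.56, SE 0.20, adjusted p = 1.54e-05), the largest change among the 10 genes here. *Pfkm*, the muscle type, had means of 27.4 and 23.7 TPM and was not called (log2 fold change -0.07, SE 0.22, adjusted p = 0.832).

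*Aldoa* gave 1286 and 1305 TPM in *c-Kit*- cells and 844 and 895 TPM in *c-Kit*+ cells. *Pgk1* gave 555 and 522 TPM against 381 and 373 TPM. *Ldha* gave 700 and 650 TPM against 409 and 358 TPM. For these genes both *c-Kit*- libraries exceeded both *c-Kit*+ libraries. *Aldoa* fell 1.35-fold (log2 fold change -0.43, SE 0.07, adjusted p = 0.000213), *Pgk1* fell 1.3-fold (-0.37, SE 0.09, adjusted p = 0.00231) and *Ldha* fell 1.60-fold (-0.67, SE 0.09, adjusted p = 2.88e-05). *Pkm* gave 1767 and 1782 TPM in *c-Kit*- cells and 1994 and 2138 TPM in *c-Kit*+ cells. It was higher in both *c-Kit*+ libraries and rose 1.29-fold (log2 fold change 0.36, SE 0.06, adjusted p = 0.000141).

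By the study's own threshold, an unadjusted p under 0.05 with a change over 2-fold, only *Hk1* and *Pfkp* of the 10 genes passed, both lower, where 24.3% of all genes tested passed. DESeq2 called 6 of the 10 genes and left out *Hk2* (adjusted p = 0.269), *Pfkl* (0.111) and *Pgk1* (0.0568). Nothing in the labels says that replicates came from separate cultures, so here and in the EpiSC comparison the p-values measure only the spread between these samples.

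The isoforms of several steps shifted within their own pair or family. These shares of summed TPM were set out after the values were seen and carry no test. *Pfkp* made up 36.8% and 33.1% of the phosphofructokinase TPM in *c-Kit*- cells and 13% and 12.4% in *c-Kit*+ cells. *Hk1* made up 70.7% and 57.3% of hexokinase TPM in *c-Kit*- cells and 33.9% and 34.1% in *c-Kit*+ cells. *Slc2a1* made up 75.0% and 73.4% of the sum with *Slc2a3*, the gene of the high-affinity transporter GLUT3, in *c-Kit*- cells, and 32.3% and 32.1% in *c-Kit*+ cells. The sum of both transporter genes itself was 718 and 705 TPM in *c-Kit*- cells and 783 and 788 TPM in *c-Kit*+ cells. *Ldhb*, whose subunit favours the conversion of lactate to pyruvate, made up 7.21% and 4.85% of the sum with *Ldha* in *c-Kit*- cells and 20.9% and 23.8% in *c-Kit*+ cells. In each of these pairs or families the populations did not overlap.

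The rest of the pathway was mixed. Among 20 other glycolytic enzymes, 11 were tested, of which 3 rose in *c-Kit*+ cells and 2 fell, with a median log2 fold change of 0.22. Those that rose were *Ldhb* (log2 fold change 1.72, adjusted p = 1.22e-05), *Eno1* (0.59, adjusted p = 0.000278) and *Gapdh* (0.36, adjusted p = 4.83e-05), and those that fell were *Eno2* (-2.09, adjusted p = 0.00148) and *Tpi1* (-0.42, adjusted p = 0.0042). Of 9 isoforms of the rate-limiting steps, 6 were tested, all but *Pfkm* already counted among the 10 genes. Of these 6, *Hk2*, *Pfkl* and *Pkm* rose, *Hk1* and *Pfkp* fell and *Pfkm* was not called (median 0.15). The count called among these isoforms was 3 without either *c-Kit*+ library and with DESeq2. Of 13 genes of glucose and lactate transport, 7 were tested, and 1 rose and 4 fell (median -0.49). *Slc2a3* rose from a mean of 184 to 533 TPM (log2 fold change 1.66, adjusted p = 2.61e-10), and *Slc2a6* (-2.68, adjusted p = 0.00489), the lactate exporter gene *Slc16a3* (-1.24, adjusted p = 1.93e-05) and *Bsg*, which encodes the chaperone of lactate transporters (-0.49, adjusted p = 0.000371), fell. The count called among transport genes went from 5 to 3 without *c-Kit*+ replicate 2 and with at least 10 expected counts required in every library, which left 4 of them tested.

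Of 7 enzymes that make or remove fructose bisphosphates, 5 were tested, of which none rose, 3 fell and 2 were not called (median -0.66). The count called was 2 to 4 under other settings. Enzymes of opposite action are mixed in this list, so its counts give no direction of control. *Pfkfb4* fell from a mean of 30.6 to 5.70 TPM (log2 fold change -2.19, adjusted p = 4.92e-05), *Pfkfb3* from 21.8 to 4.27 TPM (-1.92, adjusted p = 4.89e-05) and *Tigar* from 19.3 to 11 TPM (-0.66, adjusted p = 0.0452). Of 16 genes around the entry of pyruvate into mitochondria, inhibitory kinases and carboxykinases among them, 13 were tested, and 2 rose and 4 fell (median 0.12). These counts give no direction of pyruvate entry itself. *Pdha1*, a subunit of pyruvate dehydrogenase, rose (log2 fold change 2.30, adjusted p = 3.9e-09), as did its inhibitory kinase gene *Pdk1* (2.01, adjusted p = 2.94e-06). The pyruvate carrier genes *Mpc2* (-1.88, adjusted p = 0.00253) and *Mpc1* (-1.07, adjusted p = 0.0407) fell, and so did *Pcx* (-1.20, adjusted p = 0.0126).

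In the branches that leave glycolysis genes were called in both directions. In the pentose phosphate pathway 7 of 9 genes were tested, *Taldo1* rose (log2 fold change 0.37, adjusted p = 0.0216) and *Pgd* fell (-1.27, adjusted p = 4.26e-07), with a median of 0.37. In the glycogen and hexosamine branches 12 of 13 were tested, and 2 rose and 2 fell (median -0.33), among them *Gnpnat1* (1.29, adjusted p = 0.00317), *Pygb* (-0.76, adjusted p = 0.00133) and *Gfpt1* (-0.63, adjusted p = 0.00417). In the serine branch all 5 were tested, *Shmt1* rose (0.49, adjusted p = 0.007), and *Psat1* (-0.47, adjusted p = 0.00413) and *Shmt2* (-0.31, adjusted p = 0.026) fell, with a median of -0.31. In the serine branch edgeR called none without *c-Kit*+ replicate 2 and DESeq2 none with all libraries, with 2 at an unadjusted p under 0.05 in either case. In the pentose phosphate pathway 1 gene was called without *c-Kit*+ replicate 1, without *c-Kit*+ replicate 2, with DESeq2 and with effective length in the model, and 4 were with no filter on low counts and with a replicate block.

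Of 14 known hypoxia targets outside glycolysis 11 were tested, and 1 rose and 6 fell (median -1.09). *Ndrg1* fell from a mean of 246 to 42.9 TPM (log2 fold change -2.39, adjusted p = 1.19e-09), *P4ha1* from 40.0 to 7.67 TPM (-2.27, adjusted p = 2.82e-06) and *P4ha2* from 37.0 to 11.6 TPM (-1.38, adjusted p = 0.00193), while *Kdm3a* rose (0.74, adjusted p = 0.00334). All 13 regulators of glycolysis genes were tested, and 6 rose and 2 fell (median 0.14). *Myc* fell from a mean of 97.8 to 24.4 TPM (log2 fold change -1.91, adjusted p = 4.25e-06) and *Mxi1* fell (-1.57, adjusted p = 0.0004). *Mycn* rose from 36.9 to 109 TPM (1.77, adjusted p = 8.85e-06), and *Txnip*, whose product restrains glucose uptake (1.09, adjusted p = 0.000108), and *Sp1* (0.76, adjusted p = 0.000294) rose as well. Regulation by these factors was not tested.

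The sorted populations also differed in several, though not all, sets of cell type markers. *Kit* itself was at 4.81 and 3.24 TPM in *c-Kit*- cells and at 99.6 and 96.0 TPM in *c-Kit*+ cells. The 6 trophoblast-like markers, all over 1 TPM in all 4 libraries, summed to 6333 and 5870 TPM in *c-Kit*- cells and to 1487 and 1275 TPM in *c-Kit*+ cells, and *Peg10* was the most abundant (2035 and 1988 against 693 and 693 TPM). The 3 pluripotency markers summed to 74.4 and 64.3 TPM against 1567 and 1631 TPM, with *Pou5f1* the most abundant, *Sox2* at 0 in *c-Kit*- replicate 1 and *Nanog* at 0 in *c-Kit*- replicate 2. All 3 were over 1 TPM in *c-Kit*+ cells, and 1 and 2 of them in the *c-Kit*- libraries. The 7 fibroblast markers summed to 165 and 140 TPM against 55.9 and 44.5 TPM, with *Col1a1* or *Col1a2* the most abundant, 4 over 1 TPM in each *c-Kit*- library and 3 in each *c-Kit*+ library, and *Dcn* at 0 in 3 of the 4 libraries. The 5 germ cell markers summed to 184 and 171 TPM against 391 and 324 TPM, with *Tfap2c* the most abundant, 2 and 3 over 1 TPM against 4 and 4, and *Nanos3* and *Prdm14* at 0 in both *c-Kit*- libraries. The 4 endoderm markers summed to 19.9 and 31.2 TPM against 12 and 1.14 TPM, with *Sox17* or *Foxa2* the most abundant, 2 over 1 TPM in each library but *c-Kit*+ replicate 2, where none was, and *Afp* at 0 in all 4. The 3 naïve markers, all over 1 TPM in all 4 libraries, had overlapping sums, 123 and 118 TPM against 125 and 117 TPM, with *Klf4* the most abundant and higher in *c-Kit*- cells (104 and 105 against 84.5 and 83.8 TPM), *Tbx3* also higher there and *Esrrb* lower. The 3 primed epiblast markers summed to 43.9 and 51.4 TPM against 60.7 and 63.1 TPM, with *Dnmt3b* the most abundant, 1 and 2 over 1 TPM against 3 and 3, *Fgf5* at 0 in both *c-Kit*- libraries and *Otx2* at 0 in the first. Blood markers summed to at most 3.32 TPM and muscle and liver markers to at most 8.22 TPM in these libraries. Mitochondrial genes took 2.07% and 3.04% of counts in *c-Kit*- cells and 3.71% and 4.09% in *c-Kit*+ cells. The part of these differences in the glycolysis results was not tested.

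Day 6 BV+SC+ cells were compared with EpiSCs to see how germ cell-like cells differed from primed cells, though the EpiSC libraries are not labelled as the reporter line. Most of the route was lower in BV+SC+ cells, *Ldha* most of all, while *Pfkp* and *Hk1* were higher. Of the 10 genes, 8 were called by edgeR's quasi-likelihood test with Benjamini-Hochberg adjustment over 11792 genes (n = 2 BV+SC+ and 3 EpiSC libraries), against 56.0% of all genes tested. The 6 lower genes, *Slc2a1*, *Hk2*, *Aldoa*, *Pgk1*, *Pkm* and *Ldha*, compare with 26.4% of all genes tested called lower, and the 2 higher genes with 29.6% called higher. The median log2 fold change of the 10 genes was -0.98, beside 0.05 over all genes tested.

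The BV+SC+ replicates stood apart from each other. As their labels name 2iJi for replicate 1 and GK15 for replicate 2, they may not be replicates of 1 medium, and medium cannot be told apart from replicate; the tests treat them as 1 group. All 10 genes had a higher TPM in replicate 2, by 1.05-fold for *Gpi1* to 3.27-fold for *Pfkl*, with a median ratio of 1.51, where 55.3% of the 3729 genes with a mean of at least 50 TPM were higher in replicate 2 and their median ratio was 1.03.

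*Slc2a1* was at 212, 321 and 221 TPM in EpiSCs and at 113 and 160 TPM in BV+SC+ cells. The groups did not overlap, although EpiSC replicate 2 and BV+SC+ replicate 2 were each well above their partners. The gene fell 1.75-fold (log2 fold change -0.81, SE 0.23, adjusted p = 0.0193), and the call was lost without BV+SC+ replicate 1 (-0.57, adjusted p = 0.232) and without BV+SC+ replicate 2 (-1.09, adjusted p = 0.0688).

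*Hk1* was at 25.4, 24.2 and 26.7 TPM in EpiSCs and at 33.7 and 78.6 TPM in BV+SC+ cells. Both BV+SC+ libraries were above every EpiSC library, the second by far. *Hk1* rose 2.10-fold (log2 fold change 1.07, SE 0.32, adjusted p = 0.0254), but the log2 fold change was 0.38 without BV+SC+ replicate 2 and 1.53 without replicate 1. The call was lost without EpiSC replicate 1, 2 or 3 (adjusted p = 0.0596, 0.0695 and 0.0691). *Hk2* was at 140, 175 and 140 TPM in EpiSCs and at 50.2 and 59.9 TPM in BV+SC+ cells. Every EpiSC library was high and both BV+SC+ libraries low, and *Hk2* fell 2.57-fold (log2 fold change -1.36, SE 0.11, adjusted p = 2.57e-05).

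*Gpi1* was at 809, 867 and 835 TPM in EpiSCs and at 700 and 736 TPM in BV+SC+ cells. Though the TPM did not overlap, *Gpi1* was not called (log2 fold change -0.11, SE 0.09, adjusted p = 0.308). Without BV+SC+ replicate 2 its log2 fold change was -0.16.

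*Pfkl* was at 226, 262 and 235 TPM in EpiSCs and at 47.4 and 155 TPM in BV+SC+ cells. Both BV+SC+ libraries were below all EpiSC libraries but were themselves far apart, and *Pfkl* was not called (log2 fold change -1.22, SE 0.52, adjusted p = 0.107). With only 1 BV+SC+ library the spread comes from the EpiSC libraries alone, so only the effect is given. The log2 fold change of *Pfkl* was -0.61 without replicate 1 and -2.28 without replicate 2. *Pfkp* was at 27.9, 29.4 and 27.6 TPM in EpiSCs and at 181 and 301 TPM in BV+SC+ cells. The EpiSC libraries were uniformly low, both BV+SC+ libraries were high, and *Pfkp* rose 8.14-fold (log2 fold change 3.03, SE 0.22, adjusted p = 3.52e-05). *Pfkm* had means of 130 and 70.1 TPM and was not called (log2 fold change -0.80, SE 0.30, adjusted p = 0.0604). It was called lower with DESeq2 (adjusted p = 0.0117), with no filter on low counts (1.89e-06), with effective length in the model (0.0442), with a replicate block (0.0208) and with thinned counts (0.0461). The log2 fold change of *Pfkm* was -0.36 without BV+SC+ replicate 1 and -1.45 without replicate 2.

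*Aldoa* was at 3026, 3189 and 3018 TPM in EpiSCs and at 1218 and 1652 TPM in BV+SC+ cells. *Pgk1* was at 1384, 1618 and 1583 TPM against 422 and 680 TPM. *Pkm* was at 4327, 4612 and 4431 TPM against 1836 and 2561 TPM. In these middle and late steps every EpiSC library exceeded both BV+SC+ libraries by a wide gap. *Aldoa* fell 2.04-fold (log2 fold change -1.03, SE 0.14, adjusted p = 0.000437), *Pgk1* fell 2.62-fold (-1.39, SE 0.21, adjusted p = 0.00154) and *Pkm* fell 1.92-fold (-0.94, SE 0.14, adjusted p = 0.000996).

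*Ldha* was at 1689, 1908 and 1954 TPM in EpiSCs and at 162 and 271 TPM in BV+SC+ cells. Its groups were farther apart than those of any other lowered gene of the 10, and it fell 8.08-fold (log2 fold change -3.01, SE 0.24, adjusted p = 9.6e-05). *Ldhb* was at 85.8, 96.3 and 73.1 TPM in EpiSCs and at 453 and 916 TPM in BV+SC+ cells. This subunit gene rose 8.47-fold (log2 fold change 3.08, SE 0.32, adjusted p = 0.000458), so the lactate dehydrogenase genes changed places. The log2 fold change of *Ldhb* was 2.45 without BV+SC+ replicate 2 and 3.52 without replicate 1. The sum of *Ldha* and *Ldhb* was 1774, 2004 and 2027 TPM in EpiSCs and 616 and 1187 TPM in BV+SC+ cells.

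Isoform shares, again a description without a test, moved for several steps. *Ldhb* made up 4.84%, 4.8% and 3.6% of its sum with *Ldha* in EpiSCs and 73.6% and 77.2% in BV+SC+ cells. *Pfkp* made up 7.25%, 6.93% and 7.08% of phosphofructokinase TPM in EpiSCs and 66.1% and 54.6% in BV+SC+ cells. *Hk1* made up 15.4%, 12.2% and 16.0% of hexokinase TPM in EpiSCs and 40.0% and 56.6% in BV+SC+ cells. The groups did not overlap in any of these, even though the BV+SC+ replicates differed in level. They did overlap in the share of *Aldoc* in aldolase TPM, at 1.06%, 1.72% and 1.40% in EpiSCs and 0.831% and 1.08% in BV+SC+ cells. *Slc2a1* made up 36%, 36.7% and 34.7% of its sum with *Slc2a3* in EpiSCs and 24.0% and 24.9% in BV+SC+ cells. *Slc2a3* had means of 449 and 421 TPM and was not called (log2 fold change 0.00, SE 0.19, adjusted p = 0.999).

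**Figure D2:**
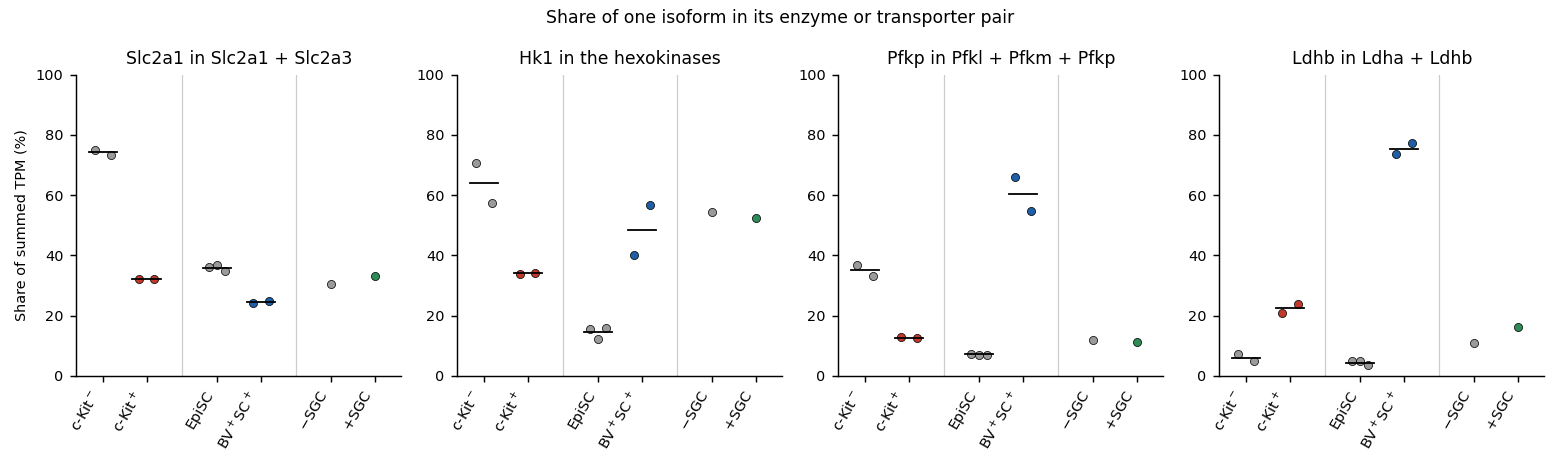
Share of 1 isoform in the summed TPM of its pair or family (y axis, percent) in each group (x axis); each point is 1 library and each bar the mean of a replicated group. *Ldhb* holds 73.6% and 77.2% of the lactate dehydrogenase pair in BV+SC+ cells and 4.84%, 4.8% and 3.6% in EpiSCs.

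By the study's own threshold 6 of the 10 genes passed, where 34.8% of all genes tested passed. Of these, 2 were higher (*Hk1* and *Pfkp*, against 17.1% of all genes tested) and 4 lower (*Hk2*, *Aldoa*, *Pgk1* and *Ldha*, against 17.7%). BV+SC+ libraries were several times deeper than EpiSC libraries, and with their counts thinned to the shallowest EpiSC library 8 of the 10 genes were again called.

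Other glycolytic enzymes were mostly lower too: of 11 tested among 20, 2 rose and 8 fell, with a median log2 fold change of -1.07. *Eno2* (log2 fold change -2.79, adjusted p = 0.000653), *Eno3* (-2.18, adjusted p = 0.000122) and *Tpi1* (-1.42, adjusted p = 6.34e-05) fell, and beside *Ldhb* *Adpgk* rose (0.50, adjusted p = 0.0144). Of the 9 rate-limiting isoforms 6 were tested, all but *Pfkm* already counted among the 10 genes. Of these 6, *Hk1* and *Pfkp* rose, *Hk2* and *Pkm* fell, and *Pfkl* and *Pfkm* were not called (median -0.87). *Hk3* and *Pklr* had a mean of at most 2.12 TPM in either group and were not tested. The count called among the rate-limiting isoforms went from 4 to 7 with no filter on low counts. Of 13 transport genes 7 were tested, and 1 rose and 4 fell (median -0.91), a count of 5 that became 3 with at least 10 expected counts required in every library. The lactate transporter genes *Slc16a3* (-2.65, adjusted p = 0.000398) and *Slc16a1* (-0.91, adjusted p = 0.000191) fell, and *Bsg* rose (0.35, adjusted p = 0.0136).

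Of the 7 genes whose enzymes make or remove fructose bisphosphates 5 were tested, of which 4 rose, none fell and 1 was not called (median 1.43). The mixed list again gives no direction of control. *Pfkfb2* (log2 fold change 2.07, adjusted p = 0.000907), *Pfkfb3* (1.90, adjusted p = 0.000569) and *Tigar* (1.43, adjusted p = 0.000182) were the largest. Of the 16 genes around pyruvate entry into mitochondria, a mixed list as above, 15 were tested, and 7 rose and 1 fell (median 0.02). The count of 8 became 5 without EpiSC replicate 3 and with at least 10 expected counts required in every library. *Mpc1* rose from a mean of 12.6 to 68.1 TPM (3.07, adjusted p = 0.000124), *Pdk1* (1.48, adjusted p = 0.00823) and *Mpc2* (1.35, adjusted p = 0.0213) rose, and the carboxykinase gene *Pck2* fell (-1.91, adjusted p = 0.036).

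The side branches differed from each other. In the pentose phosphate pathway 7 of 9 genes were tested, and *G6pdx* (log2 fold change -1.58, adjusted p = 2.09e-05), *Tkt* (-1.19, adjusted p = 8.09e-05) and *Pgls* (-0.94, adjusted p = 0.000476) fell while *Rpia* (0.82, adjusted p = 0.0247), *Rpe* (0.62, adjusted p = 0.00892) and *Taldo1* (0.35, adjusted p = 0.0258) rose, with a median of 0.03. In the serine branch, which starts from phosphoglycerate, 5 of 5 were tested, 1 rose and 4 fell (median -1.54). *Phgdh* fell from a mean of 518 to 86.4 TPM (-2.51, adjusted p = 4.41e-06), *Psph* (-2.07, adjusted p = 2.28e-05) and *Psat1* (-1.54, adjusted p = 0.000254) fell, and *Shmt1* rose (1.16, adjusted p = 4.91e-05). In the glycogen and hexosamine branches 12 of 13 were tested, and 5 rose and 3 fell (median 0.20). *Pygl*, the liver glycogen phosphorylase gene, was at 0 counts in all 3 EpiSC libraries and at least 14.8-fold higher in BV+SC+ cells, taking 3 counts per EpiSC library as the floor, and the list's median is the same with *Pygl* at that bound. *Gnpnat1* (1.5, adjusted p = 0.000387) and *Ugp2* (1.19, adjusted p = 0.00258) rose, and *Gfpt2* (-2.76, adjusted p = 3.89e-05), *Gys1* (-1.0, adjusted p = 0.000803) and *Pgm1* (-0.49, adjusted p = 0.0255) fell.

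Hypoxia targets outside glycolysis had no common direction: 12 of 14 were tested, and 3 rose and 4 fell (median 0.11). *Kdm3a* (log2 fold change 1.83, adjusted p = 1.12e-05), *Bnip3l* (0.91, adjusted p = 0.00372) and *P4ha1* (0.57, adjusted p = 0.0312) rose, and *Ddit4* (-2.09, adjusted p = 0.000179), *Egln1* (-1.40, adjusted p = 0.000232) and *Vegfa* (-1.22, adjusted p = 0.00625) fell. Of the 13 regulators of glycolysis genes, all tested, 6 rose and 3 fell (median 0.23). *Myc* fell from a mean of 110 to 4.21 TPM (-4.62, adjusted p = 0.000469), and *Hif1a* (-0.59, adjusted p = 0.00185) and *Ptbp1* (-0.58, adjusted p = 0.000812) fell. *Epas1* rose from 0.617 to 24.7 TPM (5.39, adjusted p = 3.67e-06), as did *Txnip* (1.77, adjusted p = 0.000762) and *Max* (1.21, adjusted p = 0.00121). Their part in the levels of the glycolysis genes was not tested.

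Germ cell and primed epiblast markers matched the labels of these groups, and naïve markers did not all move in 1 direction. The 5 germ cell markers summed to 1.47, 0.95 and 1.15 TPM in EpiSCs, where none was over 1 TPM and *Dppa3* and *Nanos3* were at 0, and to 1542 and 1605 TPM in BV+SC+ cells, where all 5 were over 1 TPM and *Dppa3* was the most abundant (1162 and 1202 TPM). The 3 primed epiblast markers summed to 905, 905 and 887 TPM in EpiSCs and to 22.3 and 93.5 TPM in BV+SC+ cells, with *Dnmt3b* the most abundant in EpiSCs and in BV+SC+ replicate 1 and *Otx2* in replicate 2. All 3 were over 1 TPM in EpiSCs, and 2 and 3 of them in BV+SC+ cells. The 3 naïve markers summed to 41.1, 8.15 and 5.61 TPM against 279 and 299 TPM, with *Klf4* the most abundant in EpiSCs and *Esrrb* in BV+SC+ cells, and *Tbx3* at 0 in EpiSC replicates 1 and 2. *Esrrb* carried the rise, from a mean of 0.867 to 280 TPM, while *Klf4* had a lower mean in BV+SC+ cells (17.4 against 6.29 TPM) with overlapping libraries. Of the naïve markers, 1, 1 and 2 were over 1 TPM in EpiSCs and all 3 in BV+SC+ cells. Trophoblast-like markers, 3 to 4 of 6 over 1 TPM in EpiSCs and 5 in BV+SC+ cells, summed to 46.1, 29.6 and 32.9 TPM against 200 and 64.6 TPM, led by *Krt18* in EpiSCs and *Peg10* in BV+SC+ cells, with *Elf5* at 0 in all EpiSC libraries. Fibroblast markers summed to 23.4, 39.2 and 28.3 TPM, led by *Thy1*, against 4.07 and 5.54 TPM, led by *Col1a2*, with *Postn* at 0 in every EpiSC library. Endoderm markers summed to at most 1.21 TPM in these libraries and blood markers to at most 7.20 TPM, and muscle and liver markers to 49.4, 43.1 and 42.5 TPM in EpiSCs and 3.22 and 20.9 TPM in BV+SC+ cells, nearly all from *Actn3*. The part of any such cells in the glycolysis results was not tested.

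The comparisons of sorted cells and of BV+SC+ cells share no library. *Slc2a1*, *Aldoa*, *Pgk1* and *Ldha* were called lower in both, *Hk1* and *Pfkp* lower in *c-Kit*+ cells and higher in BV+SC+ cells, and *Hk2* and *Pkm* higher in *c-Kit*+ cells and lower in BV+SC+ cells. *Pfkl* was called higher in *c-Kit*+ cells alone and *Gpi1* in neither. The difference between the comparisons was not tested.

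**Figure D3:**
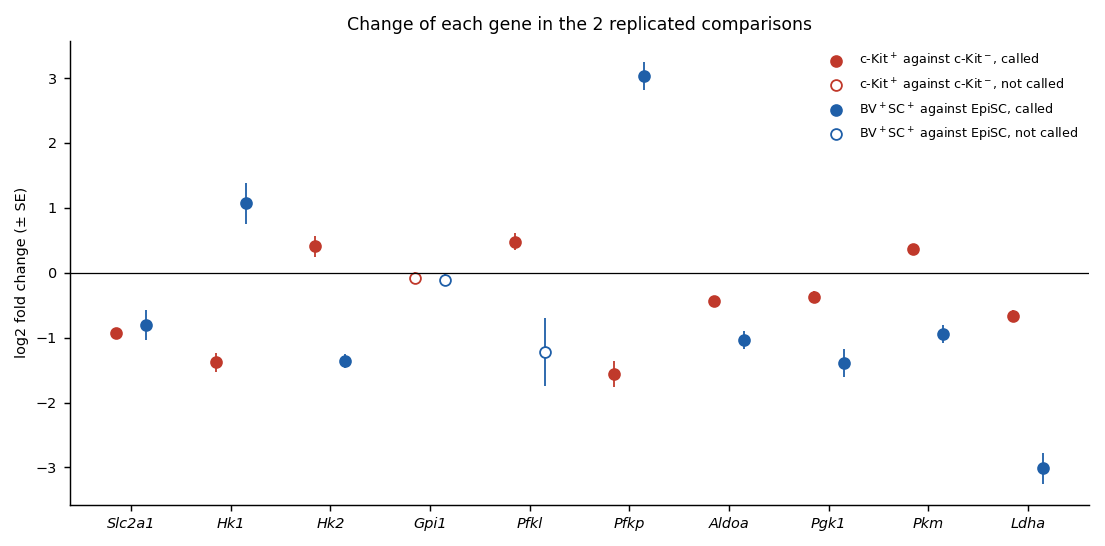
Log2 fold change (y axis) of each of the 10 genes (x axis) in *c-Kit*+ against *c-Kit*- cells (n = 2 and 2) and in BV+SC+ cells against EpiSCs (n = 2 and 3); bars are SE, and filled points were called at an adjusted p under 0.05. *Pfkp* (3.03) and *Ldha* (-3.01) show the largest changes, both in BV+SC+ cells.

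The Day 3 libraries with and without SGC0946 asked what DOT1L inhibition did to expression midway through the transition. With 1 library per condition there is no replicate check and no p-value. None of the 10 genes changed past 2-fold on the TPM scale, where 9.78% of the 14038 genes over 1 TPM in at least 1 library did, 6.33% higher and 3.45% lower. The 10 genes ranged from -0.14 to 0.32 on the log2 scale, 4 above and 6 below 0, with a median of -0.03 beside 0.01 for all these genes.

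*Slc2a1* had the largest difference, at 286 TPM with SGC0946 and 229 TPM without it (log2 change in TPM 0.32). The exact 95% interval of its count ratio, from 0.23 to 0.43 on the log2 scale, did not include 0. Such intervals cover counting error only, and not the spread between cultures. For *Aldoa* the levels were 1168 and 1038 TPM (log2 change 0.17; count ratio interval from 0.14 to 0.28). For *Pkm* they were 2288 and 2123 TPM (0.11; from 0.10 to 0.17). For *Pgk1* they were 406 and 380 TPM (0.09; from 0.02 to 0.22). These 4 were the genes with intervals away from 0, all of them higher with SGC0946. Such intervals were found for 24.3% of the 14038 genes, 14.3% higher, and for 30.6% of the 7035 genes with at least as many counts as *Pfkp*, which had the fewest of the 10, 15.3% higher.

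*Ldha* measured 535 TPM with and 551 TPM without SGC0946, and its interval, from -0.11 to 0.07, included 0. *Gpi1* measured 513 and 527 TPM, and *Pfkl* 103 and 106 TPM. *Hk1* measured 34.1 and 34.5 TPM, *Hk2* 26.9 and 29.0 TPM, and *Pfkp* 17.4 and 19.2 TPM. For none of these was a difference detectable beyond counting error. *Pfkp* was lower with SGC0946 by TPM (log2 change -0.14) and higher by counts (0.13, interval from -0.23 to 0.50), with 137 and 120 expected counts. By counts *Hk1* (0.02) and *Gpi1* (0.01) also lay just above 0. Of the other rate-limiting isoforms, *Pfkm* measured 35.6 and 36.7 TPM, and *Hk3* and *Pklr* were under 1 TPM in both libraries. *Ldhb* held 16.2% of its sum with *Ldha* with SGC0946 and 10.8% without it, while *Pfkp* held 11.2% and 11.9% of the phosphofructokinases and *Slc2a1* 33.1% and 30.4% of its sum with *Slc2a3*.

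Few genes of the surrounding lists passed 2-fold with SGC0946. Of genes over 1 TPM in either library, none passed among 8 transport genes, 6 of fructose bisphosphate control, 14 of pyruvate entry, 7 of the pentose phosphate pathway, 5 of the serine branch and 13 regulators. By TPM 2 of 13 were lower past 2-fold in the glycogen and hexosamine branches, and 1 of 13 hypoxia targets was higher. These genes, named after their values were seen, rest on few reads. *Pygm* had 5 expected counts with and 7 without SGC0946 (log2 count ratio -0.55, interval from -2.55 to 1.33). *Pygl* had 12 with and 3 without it, so that by counts it was higher (1.94, from 0.05 to 4.4) and by TPM lower (log2 change -1.49). *Ankrd37*, the hypoxia target, had 6 and 2 (1.52, from -0.96 to 4.86). The medians of these lists lay between -0.02 and 0.19. The 5 germ cell markers, 4 over 1 TPM in each library, summed to 200 TPM with and 69.3 TPM without SGC0946, with *Tfap2c* the most abundant, and the 3 naïve markers, all over 1 TPM, to 206 and 306 TPM, with *Tbx3* the most abundant (187 and 296 TPM). The 3 primed epiblast markers, 1 over 1 TPM in each library, summed to 41.9 and 39.9 TPM, with *Dnmt3b* the most abundant and *Fgf5* at 0 without SGC0946. The 3 pluripotency markers, all over 1 TPM in both libraries, summed to 715 TPM with and 132 TPM without SGC0946, with *Pou5f1* at 549 and 67.3 TPM. Trophoblast-like markers, 5 of 6 over 1 TPM in each library, summed to 1866 and 2250 TPM, with *Peg10* the most abundant (1274 and 1538 TPM) and *Elf5* at 0 without SGC0946. Fibroblast markers summed to 290 and 279 TPM, with *Col1a1* the most abundant and 7 and 6 of 7 over 1 TPM. Endoderm markers summed to 3.98 and 5.06 TPM, blood markers were at 0, and muscle and liver markers summed to 12.8 and 16.5 TPM, nearly all from *Actn3*. The part of these cells in the levels of the glycolysis genes was not tested.

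Pseudogenes that copy glycolysis genes can take part of their reads, since RSEM divides reads that match several transcripts. Genes were compared by the runs of 31 bases that their annotated transcripts share, and a copy was counted where it shared at least 30% of its own runs with 1 of the 10 genes. Only 1 copy reached 10 expected counts in any library: *Gm1840*, a processed pseudogene of *Gpi1* (chr8:5639580-5641011, plus strand), which shares 59.1% of its runs with it. *Gm1840* held 3.34%, 3.20% and 3.23% of the counts of the pair in EpiSCs, and 2.45% and 2.48% in BV+SC+ cells. It held 3.66% (exact 95% interval 2.95% to 4.45%) with SGC0946 and 4.15% (3.41% to 5.05%) without it. The share was thus small in all 7 of these libraries and lowest in BV+SC+ cells, and *Gpi1* summed with *Gm1840* was again not called there (log2 fold change -0.12, adjusted p = 0.261). In the 4 sorted libraries *Gm1840* was listed with 0 counts.

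*Pgk1* has copies in processed pseudogenes, *Pgk1-rs7* (chr12:10898986-10900240, minus strand) and, in the gene list of the sorted libraries, *Gm5537* (chr3:58102996-58104247, minus strand). Each shares 100% of its own runs with *Pgk1*, which are 54.6% to 56.4% of the runs of *Pgk1*, and had 0 expected counts in every library that lists it. *Ldha* shares 40.3% of the runs of *Gm11032*, which had 0 counts as well. The list of the sorted libraries also holds *Gm6560*, a processed pseudogene that shares 58.4% of its runs with *Pkm* and had 1 expected count in *c-Kit*- replicate 1 and 0 in the other libraries, and *Gm27773*, a microRNA gene that shares 33.3% with *Gpi1* and had 0. For *Slc2a1*, *Hk1*, *Hk2*, *Pfkl*, *Pfkp* and *Aldoa* no copy met the 30% mark. *Pfkp* instead overlaps the peptidase gene *Pitrm1*, which lies on the opposite strand, at their ends (chr13:6579768-6580515), and its expected counts were not whole numbers in any of the 11 libraries. *Pitrm1* was at 62.4 and 43.8 TPM in *c-Kit*- cells, 97.8 and 93.0 TPM in *c-Kit*+ cells, 88.9, 97.8 and 96.7 TPM in EpiSCs and 105 and 82.6 TPM in BV+SC+ cells. The *Pfkp* levels thus fell where *Pitrm1* was higher among sorted cells, while in BV+SC+ cells *Pfkp* was high at *Pitrm1* levels like those of EpiSCs. The number of reads divided between *Pfkp* and *Pitrm1* was not tested.

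The protein-coding gene with the most similar pattern was searched for among 10315 genes, by Euclidean distance of centred log2(TPM + 1) over the 7 libraries that share a gene list. *Ipo8* lay nearest to *Pkm* (distance 0.144), *Ankrd27* to *Aldoa* (0.185) and *Adam17* to *Hk1* (0.273). *G3bp2* lay nearest to *Ldha* (0.353), *Gtf2h5* to *Slc2a1* (0.363), *Ccne1* to *Pfkl* (0.426) and *Stat4* to *Pfkp* (0.757). *Tent5b* was the nearest gene to both *Pgk1* (0.409) and *Hk2* (0.47). None of these nearest genes was itself 1 of the 10, and among the 10 the closest pair was *Aldoa* with *Pkm* (distance 0.531).

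In BV+SC+ cells 6 of the 10 genes were called lower, 2 were called higher and 2 were not called. The promoters of all 10 were searched for letters known from regulators of glycolysis. These were ACGTG and GCGTG, the core of hypoxia response elements, and CACGTG, the E-box of MYC and its partners, each on both strands. CACGTG reads the same on both strands and holds ACGTG on each of them. All 10 genes matched a RefSeq promoter (GRCm38.p6, 250 bases before to 50 after the gene start), 15 windows in all. ACGTG was found in 8 windows and GCGTG in 6, and 11 windows from 9 of the 10 genes held at least 1 of them, *Gpi1* having none. *Aldoa* windows 2 and 3 overlap and hold the same single ACGTG match, which is thus counted in both windows. Among all 32851 promoters of this length ACGTG was in 19.6%, GCGTG in 32.4% and either in 43.8%. CACGTG was in 1 of the 15 windows, that of the first *Ldha* promoter, at 2 places, and in 7.15% of all promoters. The windows below are those of *Slc2a1*, *Pgk1* and *Ldha*, which fell in both comparisons, and of *Pfkp*, which had the largest rise, chosen after their matches were seen, with matches to ACGTG or GCGTG on either strand in capitals. They lie at chr4:119108495-119108794 (*Slc2a1*, plus strand), chr13:6648722-6649021 (*Pfkp*, minus strand), chrX:106186850-106187149 (*Pgk1*, plus strand) and chr7:46845554-46845853 (*Ldha* 1, plus strand). Not printed are *Ldha* window 2, which holds GCGTG at 2 places, and the windows of *Aldoa*, which fell in both comparisons too and has no match in window 1.
Slc2a1: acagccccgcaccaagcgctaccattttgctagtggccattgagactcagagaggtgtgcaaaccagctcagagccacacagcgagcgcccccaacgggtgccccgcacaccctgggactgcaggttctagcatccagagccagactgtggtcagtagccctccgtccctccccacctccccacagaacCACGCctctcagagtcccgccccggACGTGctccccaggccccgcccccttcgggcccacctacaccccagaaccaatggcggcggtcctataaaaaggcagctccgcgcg
Pfkp: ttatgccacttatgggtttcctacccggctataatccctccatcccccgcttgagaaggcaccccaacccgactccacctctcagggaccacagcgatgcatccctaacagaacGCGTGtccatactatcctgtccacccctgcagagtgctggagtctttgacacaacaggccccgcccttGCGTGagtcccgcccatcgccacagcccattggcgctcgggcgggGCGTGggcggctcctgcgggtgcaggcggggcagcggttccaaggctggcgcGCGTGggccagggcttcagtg
Pgk1: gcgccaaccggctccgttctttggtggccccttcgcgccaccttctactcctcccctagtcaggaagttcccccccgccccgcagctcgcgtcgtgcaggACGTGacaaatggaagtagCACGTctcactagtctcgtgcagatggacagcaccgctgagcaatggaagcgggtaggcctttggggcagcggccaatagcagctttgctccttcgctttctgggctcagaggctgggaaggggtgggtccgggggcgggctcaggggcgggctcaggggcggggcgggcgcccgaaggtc
Ldha 1: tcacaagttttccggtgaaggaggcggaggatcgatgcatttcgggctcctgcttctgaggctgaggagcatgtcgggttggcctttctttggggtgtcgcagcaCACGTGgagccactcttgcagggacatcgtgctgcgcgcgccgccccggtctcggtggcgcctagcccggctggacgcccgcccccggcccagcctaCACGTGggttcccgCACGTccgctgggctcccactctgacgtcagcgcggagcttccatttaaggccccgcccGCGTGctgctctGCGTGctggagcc

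The *Pfkp* window holds GCGTG at 4 places and no ACGTG, the *Pgk1* window ACGTG at 2 places and no GCGTG, and the *Slc2a1* window 1 of each. The first *Ldha* window holds 7 matches, 5 to ACGTG and 2 to GCGTG, of which both CACGTG places account for 4. A match is a description of the letters in the window, not a bound site or a cause.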

How the data were processed

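Per the labels, reads of all 11 RNA-seq libraries were aligned with Bowtie2, and the labels of the 7 unsorted libraries name RSEM 1.3.1; the authors deposited expected counts, effective lengths and TPM for each gene. By the labels, unsorted libraries were made from ribosome-depleted total RNA, and sorted ones are described as mRNA. The study's methods name an mRNA-seq kit for its RNA-seq and set no library apart. Counts (1726038 to 18099059 per library) were rounded and tested with edgeR 4.0.16 in R 4.3.3 (TMM, filterByExpr, robust quasi-likelihood), 1 fit per replicated comparison, with Benjamini-Hochberg adjustment. The SGC0946 libraries were compared by log2 of TPM + 1. The alternatives were DESeq2 1.42.0, other size factors, filters, gene sets, pseudocounts and scaling, effective lengths, summed copies, thinned counts, a replicate block and leaving out each library; fits were tested on simulated data. Positions and copies came from GENCODE M21 (GRCm38). All 10 members and most rate-limiting isoforms are named, and some results on other genes are not reported here; from other lists, at most the 3 largest called changes in each direction with a mean of at least 5 TPM. Members and lists were chosen with earlier results of these data known. The single-cell and chromatin samples were not used here.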

Additional observations from a re-analysis of the deposited data

How the results depend on the processing

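Of the 10 genes, the number called in *c-Kit*+ against *c-Kit*- cells went from 9 to 6 with DESeq2, to 8 with at least 10 expected counts in every library and to 8 with effective length in the model, was 9 under the 5 other settings, and was 2 under the study's threshold, which asks for over 2-fold. In BV+SC+ cells against EpiSCs the number was 8, was 9 with no filter on low counts, was 8 under the 8 other settings, and was 6 under the study's threshold. Leaving out a library gave 7 to 9 in each comparison; a group left with 1 library was assumed to vary like the other group. A replicate block, which assumes that libraries sharing a number belong together, gave 9 and 8 genes called; across genes, the deviations from the group mean of libraries with the same number had a correlation of 0.0664 among sorted cells and -0.0212 among BV+SC+ cells and EpiSCs, and genes are not independent replicates. With effective length in the model *Gpi1* in *c-Kit*+ cells changed sign, from -0.08 to 0.06 (adjusted p = 0.663), and was called in neither case; the cause was not tested. With no filter on low counts *Pfkl* was called in BV+SC+ cells (-1.17, adjusted p = 3.96e-18, against 0.0596 to 0.14 under the 8 other settings), and the median log2 fold change of all genes there moved from 0.05 to 0.29. No alternative brought any of the 10 genes past 2-fold with SGC0946 (0 under all 6), where the log2 change of *Pfkp* ran from -0.17 to 0.12. Of the counts called in the gene lists, 7 of 80 moved by over 1.5 times under other settings among sorted cells and 3 of 90 in BV+SC+ cells, among them the serine branch from 3 to 0 with DESeq2 and the pentose phosphate pathway from 2 to between 1 and 4. Over all genes, those called among sorted cells numbered 4752, but 2755 with DESeq2, 2672 under the study's threshold and 3080 without *c-Kit*+ replicate 2; those called in BV+SC+ cells 6601, but 4101 under the study's threshold; and those past 2-fold with SGC0946 1373, but 555 with TPM over 1 in both libraries and 817 by CPM, counts scaled to library totals. Counting copies from 10% of shared runs in place of 30% gave 3 genes with at least 10 expected counts in place of 1, adding *Gm26762*, antisense to *Gpi1*, and *Gm49759*, within *Pkm*, which with the other *Pkm* copies held 1.70% to 1.91% of counts in the sorted libraries; the lower mark itself admits more genes. At these depths 3 counts correspond to 0.166 to 1.74 CPM, and differences in *Hk3* and *Pklr* were not detectable.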
